A study of Mus musculus with 10 samples.

Results

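The 10 genes described here encode heat shock chaperones: Hspa1a, Hspa1b, Hspa8, Hsph1, Dnajb1, Hsp90aa1, Hsp90ab1, Hspb1, Hspd1 and Hspe1. They were selected by symbol, as a set picked for the fall of Hspa1a, Hspa1b and Hspa8 in old livers. They are 10 of the 24537 genes counted, and all 10 were among the 13909 genes that passed the filter on low counts. Since age chose the set, its age values are a description and no test of the 10 genes was read from them. The difference between knockout and old control livers and that between the 2 guides were not what the set was picked for. The old livers of that choice may include the knockout livers, so for Hspa1a, Hspa1b and Hspa8 low values in knockout livers are given as a description as well.

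RNA was sequenced from 10 whole livers of male mice, all of which carried an AAV8 vector expressing saCas9 from the hepatocyte promoter TBG and a guide RNA from a U6 promoter. Young control livers (n = 3) came from mice that received a Rosa26 guide at 7 months and were aged 9 months. Old control livers (n = 3) came from mice that received the Rosa26 guide at 23 months and were 25 months old. Old knockout livers (n = 4) came from mice that received a Cd44 guide at 23 months and were also 25 months old. Guide 4 was given in replicates 1 and 2 and guide 2 in replicates 3 and 4. Cas9 was thus directed to hepatocytes, while the RNA came from every cell of the liver. Replicate numbers only name a liver. The labels do not say that the livers of a group came from separate mice, so p-values measure the spread between these samples, which may in part be technical. The labels give no time of day of collection.

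Chaperones hold unfolded proteins and help them fold. HSP70 proteins bind short hydrophobic stretches in a cycle driven by ATP, J-domain proteins deliver substrates and start ATP hydrolysis, and nucleotide exchange factors release ADP. HSP90 proteins act later, on near-native clients such as kinases and steroid receptors. Small heat shock proteins hold unfolding proteins without ATP, and HSP60 with its lid HSP10 folds proteins in the mitochondrial matrix. When unfolded protein accumulates, the transcription factor HSF1 is freed from chaperones, forms trimers and binds repeats of nGAAn upstream of many of these genes. Body temperature, feeding and time of day are known to move several of them in liver.

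Total counts lay between 15821198 and 21710228 per liver, so 3 counts corresponded to 0.138 to 0.190 CPM, and the 10 genes held 0.208% to 0.524% of all counts. CPM is the read count of a gene relative to its library size, with library sizes scaled by the trimmed mean of M values (TMM). Cd44, the targeted gene, had 14.2 to 30.0 CPM in old control and 13.1 to 29.0 CPM in knockout livers. These ranges overlap, so every knockout direction below rests on the labels. Among the 13909 genes old control replicate 3 was the highest of the 7 old livers in 23.8%, more than any other old liver. Old control replicate 1 followed at 22.4%. The TMM factor of old control replicate 3 was 0.966, against 1.11 and 1.12 in old control replicates 1 and 2. Its title number also lies apart from the run of the other livers. With TMM the median log2 difference of all genes with age was 0.04, and with total counts it was 0.34. Under total counts all 10 chaperone genes were still lower in old control livers, and 8 of them, all but Hspd1 and Hspe1, kept every old control liver below every young one.

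Stretches before the annotated RefSeq start sites of these genes are shown first, because HSF1 is known to act near the starts of heat shock genes. RefSeq promoter windows (GRCm38.p6) were present for 7 of the 10 genes, all but Hspa8, Hsp90aa1 and Hsp90ab1. In the 250 bases before each start, on both strands, the letters GAANNTTC or TTCNNGAA (2 units of the HSF1 repeat, facing each other) were searched. They were found in 6 of these 7 genes, against 14.55% of 27025 genes with a window. Capitals mark the matches in the printed sequences, which run 5′ to 3′ on the strand of the gene.
Hspa1a: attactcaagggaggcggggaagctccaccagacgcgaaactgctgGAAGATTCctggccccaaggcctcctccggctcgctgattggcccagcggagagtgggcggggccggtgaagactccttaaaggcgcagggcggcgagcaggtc
Hspa1b: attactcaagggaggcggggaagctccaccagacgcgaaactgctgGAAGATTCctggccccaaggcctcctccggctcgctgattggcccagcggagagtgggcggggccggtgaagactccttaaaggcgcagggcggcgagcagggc
Hspb1: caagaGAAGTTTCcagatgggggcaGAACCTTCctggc
Hsph1: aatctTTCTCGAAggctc
Hspd1: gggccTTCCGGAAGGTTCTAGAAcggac
Hspe1: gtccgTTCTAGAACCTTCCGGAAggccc
The Hspa1a stretch is chr17:34972157-34972306 (minus strand) and the Hspa1b stretch chr17:34959239-34959388 (minus strand). They were equal at 149 of 150 bases, and each match began 104 bases before the start. The Hspb1 stretch, chr5:135887797-135887834 (plus strand), held 2 matches that began 117 and 97 bases before the start. The Hsph1 match lies in chr5:149636357-149636374 (minus strand), and all 18 of these bases fall in a GENCODE exon of Hsph1, whose annotated start lies further out than the RefSeq starts. Hspd1 and Hspe1 are read away from each other from 1 shared stretch, chr1:55088054-55088081, printed on the minus strand for Hspd1 and on the plus strand for Hspe1. That stretch held 3 matches that overlap and was also matched by the longer form of 3 units, GAANNTTCNNGAA or TTCNNGAANNTTC, which 0.51% of genes with a window held. All 28 of its bases also fall in a GENCODE exon of Hspd1, from a transcript that starts further out. The other window of Hspd1 and the 2 windows of Dnajb1 held no match to these letters. A match describes the letters only, and binding was not measured.

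The position of the genes bears on how well their reads can be told apart. In the GENCODE M21 annotation of GRCm38, Hspa1a (chr17:34969190-34972156, minus strand) and Hspa1b (chr17:34956436-34959238, minus strand) are single-exon neighbours 9951 bases apart. Of the windows of 75 bases in their transcripts, 54.2% for Hspa1a and 55.8% for Hspa1b also occur in another transcript, nearly all in each other. The division of reads between them is therefore uncertain, and the summed pair is given beside each. Shares with other transcripts, most of them with a processed pseudogene, were 68.0% for Hspa8 (chr9:40800984-40810087, plus strand), 53.1% for Hsp90aa1 (chr12:110690605-110702728, minus strand) and 47.3% for Hspb1 (chr5:135887919-135889563, plus strand). The share was 33.7% for Hspd1 (chr1:55077835-55088243, minus strand), again mostly with a pseudogene, and 23.7% for Hspe1 (chr1:55088132-55091307, plus strand), whose gene bodies overlap by 112 bases. Hsp90ab1 (chr17:45567775-45573271, minus strand) shared 0.74%, and Hsph1 (chr5:149614287-149636376, minus strand) and Dnajb1 (chr8:83608193-83612653, plus strand) shared none. How reads with several matches were counted is not given in the sources used here.

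The genes differed widely in level. Exon length was the union over all annotated transcripts of a gene, with 4301 bases for Hspa8, 7266 for Hsph1 and 1474 for Hspe1. Their longest coding transcripts have 2394, 3802 and 774 bases, so the order and the ties below depend on this choice of length. On the scale of CPM per kilobase of exon, young livers (n = 3, mean ± SD) had 540 ± 62.9 for Hsp90ab1, the constitutive cytosolic HSP90, and 531 ± 27.7 for Hspa8, the constitutive cytosolic HSP70. These were not apart by more than their spread. Next came the mitochondrial HSP60 Hspd1 at 192 ± 16.7. Hspe1 at 130.0 ± 27.5, Hsp90aa1 at 109 ± 24.9 and Hspb1 at 101 ± 47.2 lay within their spread of each other. Hspa1b at 25.1 ± 11.3 and Hsph1 at 21.6 ± 6.002 did so too. Dnajb1 at 12.02 ± 1.07 and Hspa1a at 2.96 ± 1.11 were lowest, so the constitutive members stood above the inducible HSP70 pair in livers that had not been labelled as heat shocked.

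With age, all 10 genes were lower in old control than in young livers. In each of them every old control liver lay below every young liver, which held for 18% of all genes tested. All 10 were also called lower by edgeR's quasi-likelihood test (adjusted p under 0.05), against 8.66% of all genes called lower and 14.1% called higher. The choice of the genes used this comparison, so nothing is read from these counts. Their median log2 fold change was -1.48, and that of all genes was 0.04 with quartiles at -0.27 and 0.52. The count of called members was 4 without young replicate 2, without young replicate 3 or without old control replicate 2, namely Hspa1a, Hspa1b, Hspa8 and Dnajb1 in each case.

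**Figure D1:**
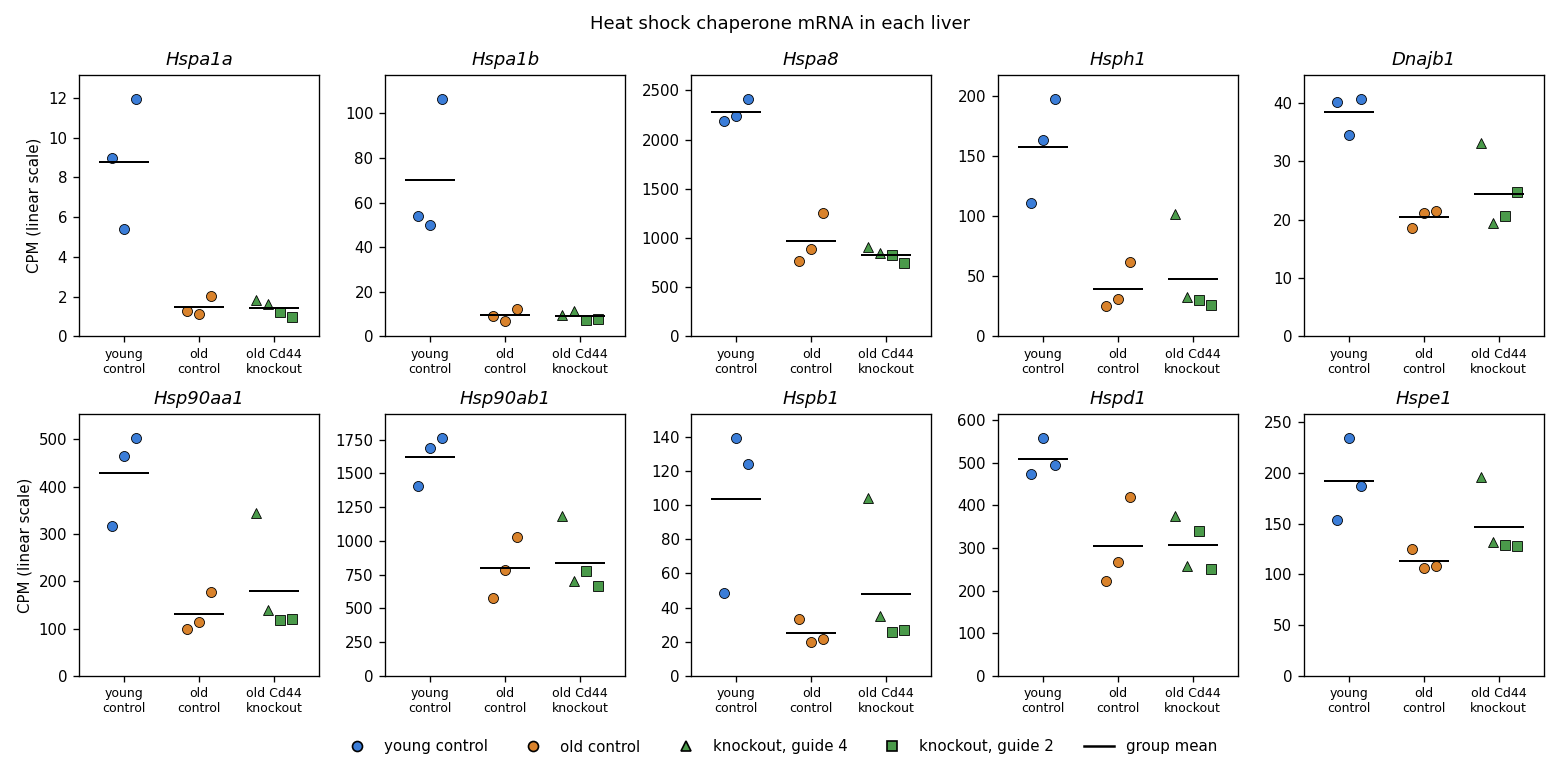
CPM of each of the 10 chaperone genes in each of the 10 livers, on linear axes that start at 0, with young control, old control and old knockout livers side by side, a line at each group mean, and triangles for guide 4 and squares for guide 2. For all 10 genes the 3 old control points lie below the 3 young points, and knockout replicate 1 stands above the other knockout livers for Hsph1, Hsp90aa1, Hspb1 and Hspe1.

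The inducible HSP70 pair had the largest fold differences of the 10. Hspa1b, an HSP70 that is strongly induced by heat, had 54.1, 50.1 and 106.7 CPM in young replicates 1 to 3 and 9.14, 6.88 and 12.3 CPM in old control replicates 1 to 3. Even the lowest young liver stood far above the highest old control, and the log2 difference was -2.90 (SE 0.32), 7.44-fold lower. Hspa1a, its near-identical neighbour, had 9.00, 5.41 and 11.97 CPM in young and 1.28, 1.14 and 2.05 CPM in old control livers. Young replicate 3 was the highest liver for both genes, and the groups did not overlap. The log2 difference of Hspa1a was -2.56 (SE 0.35). Summed, the pair had 63.1, 55.5 and 119 CPM in young and 10.4, 8.02 and 14.4 CPM in old control livers, a log2 difference of -2.85 (SE 0.32). The ratio of Hspa1b to Hspa1a counts stayed between 5.19 and 9.26 over the 10 livers.

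Hspa8, which unlike the pair is made at high level in resting cells, had 2190.5, 2242 and 2418 CPM in young and 767, 885 and 1254 CPM in old control livers. Its young livers lay close together, and old control replicate 3 was the highest old control. The log2 difference was -1.24 (SE 0.18), or 2.36-fold lower, so its loss in CPM was the largest of the set although its fold was smaller than that of the pair.

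The partners of HSP70 were lower as well. Hsph1 encodes HSP110, a nucleotide exchange factor that with HSP70 pulls apart aggregates, and had 111, 163 and 198 CPM in young and 25.2, 31.0 and 61.8 CPM in old control livers. Old control replicate 3 was the highest old control, and the log2 difference was -1.997 (SE 0.52). Dnajb1, the J-domain protein HSP40 that joins the same disaggregating machine, had 40.1, 34.6 and 40.8 CPM in young and 18.5, 21.2 and 21.5 CPM in old control livers. Its old control livers lay close together, well below the lowest young liver, with a log2 difference of -0.92 (SE 0.19).

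The HSP90 genes are one stress-inducible and one constitutive. Hsp90aa1, the inducible form, had 318, 465 and 503 CPM in young and 98.1, 114 and 178 CPM in old control livers, a log2 difference of -1.72 (SE 0.41). Hsp90ab1, the constitutive form, had 1405, 1690 and 1762 CPM in young and 574, 785 and 1032 CPM in old control livers, a log2 difference of -1.02 (SE 0.26). In both genes young replicate 1 was the lowest young liver and old control replicate 3 the highest old control, and the fold between the lowest young and the highest old control liver was wider for Hsp90aa1, while the gap in CPM was wider for Hsp90ab1. The ratio of the fold changes was not tested.

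Hspb1, the small heat shock protein HSP25, had 48.3, 139 and 124 CPM in young and 33.2, 20.1 and 21.8 CPM in old control livers. Young replicate 1 lay near the old livers, and the log2 difference was -2.05 (SE 0.55), the widest error of the set. The mitochondrial pair differed least. Hspd1 (HSP60) had 473, 558 and 494 CPM in young and 224, 268 and 421 CPM in old control livers, a log2 difference of -0.74 (SE 0.24). Hspe1 (HSP10, the lid of the HSP60 chamber) had 154, 234 and 187 CPM in young and 125, 106 and 108 CPM in old control livers, a log2 difference of -0.76 (SE 0.20). Old control replicate 3 was high for Hspd1 but not for Hspe1, although the genes share a promoter stretch.

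**Figure D2:**
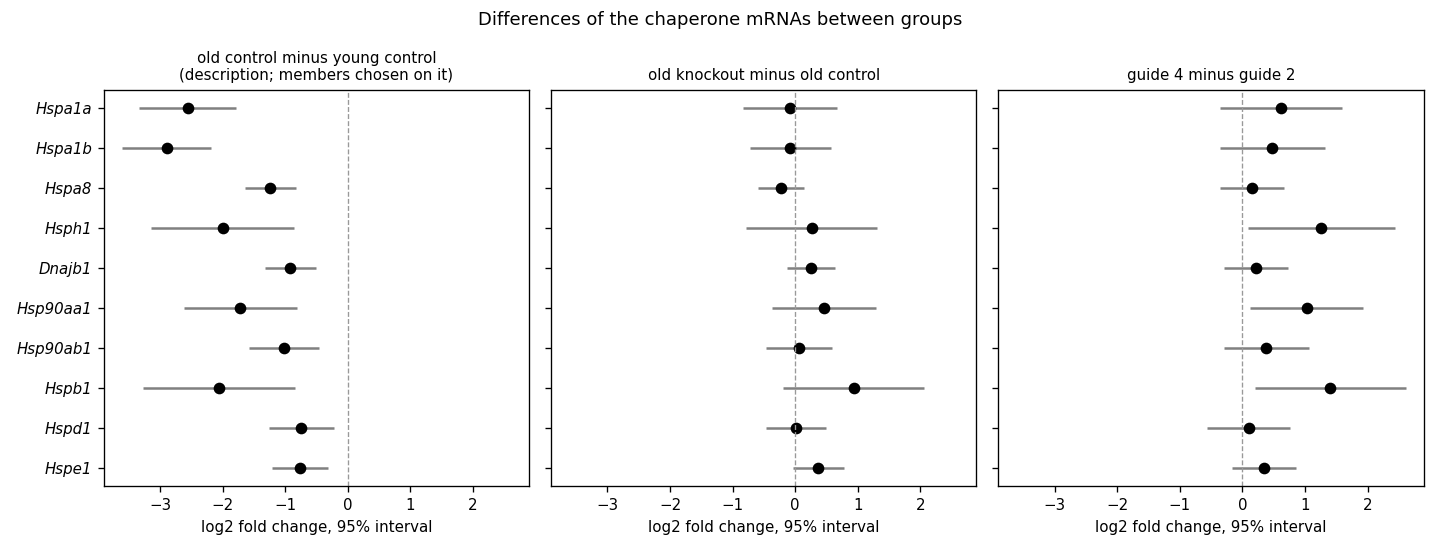
Log2 differences of the 10 genes with 95% intervals from the edgeR fit, in panels for old control minus young, old knockout minus old control, and guide 4 minus guide 2. All 10 age differences lie below 0, from -0.74 to -2.90, and the intervals of knockout minus old control all cross 0.

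Of 116 other chaperone and heat shock genes tested in 7 lists, 33 were called lower and 2 higher in old control livers, 30.2% of the listed genes, beside the 8.66% lower and 14.1% higher of all genes. Their median log2 difference was -0.39, against 0.04 over all genes. The lists overlap in function with the 10 genes and were assembled with results of these data known. By list, 7 of 29 HSP70 family members and cochaperones were called lower and 2 higher, 9 of 16 HSP90 cochaperones lower, 6 of 14 TRiC and prefoldin subunits lower, 4 of 18 heat shock factors and other HSF1 targets lower, 3 of 16 mitochondrial and 3 of 18 endoplasmic reticulum chaperones lower, and 1 of 5 tested small heat shock proteins lower. Without young replicate 2 the total of 35 calls was 5, without old control replicate 2 it was 11, and without old control replicate 3 it was 66.

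**Figure D3:**
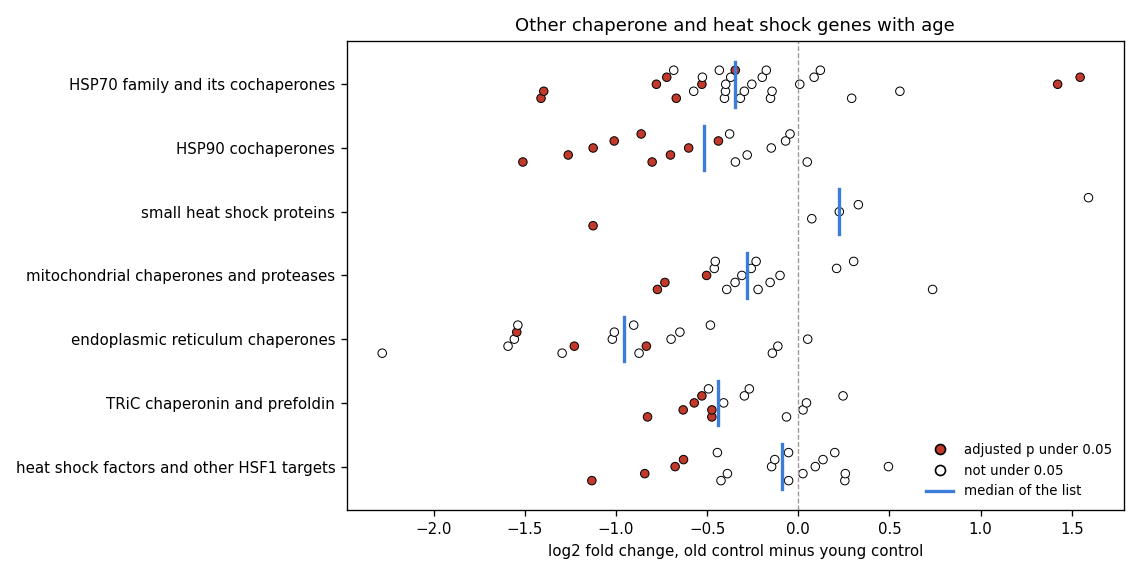
Log2 difference of old control minus young for each tested gene of the 7 chaperone lists, with genes called at an adjusted p under 0.05 filled and a line at the median of each list. The medians of the HSP90 cochaperone (-0.52), endoplasmic reticulum (-0.96), TRiC (-0.44) and HSP70 family (-0.35) lists lie below the median of all genes (0.04). So do those of the mitochondrial list (-0.28) and of the heat shock factors and other HSF1 targets (-0.09). The median of the small heat shock proteins (0.22) lies above that of all genes.

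In the HSP70 family, Dnaja1, a J-domain cochaperone, had 369 to 503 CPM in young and 132 to 228 CPM in old control livers, a log2 difference of -1.41 (SE 0.32, edgeR adjusted p 0.0139). Hspa4l, an HSP110 relative, had a log2 difference of -1.40 (SE 0.24; adjusted p in edgeR 0.00829). Hspa12a and Hspa12b, distant HSP70 relatives, rose by 1.55 and 1.42 on the log2 scale, the only members of the 7 lists that were called higher. Both are low, at 1.69 to 3.24 and 1.48 to 2.32 CPM in old control livers.

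Among HSP90 cochaperones, Fkbp5, an immunophilin of steroid receptor complexes and a known glucocorticoid target, had a log2 difference of -1.51 (SE 0.25; adjusted p in edgeR 0.00798), from 93.8 to 143 CPM in young to 24.1 to 48.8 CPM in old control livers. Chordc1, Stip1 (the bridge between HSP70 and HSP90) and Ahsa1 (which speeds HSP90's ATP cycle) fell by 1.26, 1.13 and 1.01 on the log2 scale. Hspb8, which works with Bag3 in the autophagy of unfolded proteins, fell by 1.13 (SE 0.21, edgeR adjusted p 0.00913), and Bag3 itself fell by 1.13 (SE 0.23, edgeR adjusted p 0.0101). Hikeshi, which carries HSP70 into the nucleus, fell by 0.84, and Sqstm1, an autophagy receptor, by 0.63. The mitochondrial protease subunit Clpx, the J-domain protein Dnaja3 and the exchange factor Grpel1 had log2 differences of -0.77, -0.73 and -0.50, and the TRiC subunits Cct3, Cct2, Cct6a and Cct5 had -0.83, -0.63, -0.57 and -0.53.

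In the endoplasmic reticulum list 17 of 18 genes were lower and the median was -0.96, with only Dnajb9, Dnajb11 and Pdia6 called, at -1.54, -1.23 and -0.83. Hspa5 (BiP), the HSP70 of that compartment, had a log2 difference of -1.56 with an edgeR adjusted p of 0.0519. Hsf1, the main activator, had 20.8 to 23.2 CPM in young and 14.8 to 20.3 CPM in old control livers, a log2 difference of -0.39 that did not pass (edgeR adjusted p 0.0966). Hsf2 had 16.5 to 21.1 and 18.0 to 28.7 CPM.

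Other genes that respond to the state of the animal moved in the same livers. The cold-inducible RNA-binding protein gene Cirbp rose by 1.47 with age (log2; SE 0.28; adjusted p in edgeR 0.00936), from 10.8 to 15.4 CPM to 21.8 to 50.7 CPM, and Rbm3 by 0.58. Beside 14.1% of all genes tested called higher with age and 8.66% called lower, 2 of 14 clock genes were called higher and 3 lower. Dbp, an output gene of the circadian clock, had 2.64 to 24.7 CPM in young, 26.7 to 86.4 CPM in old control and 74.3 to 91.0 CPM in knockout livers. Of 14 immediate early genes 4 were called higher, among them Fos and Egr1 at 1.21 and 1.497. Egr1 had 7.73 to 30.4, 50.1 to 68.6 and 6.62 to 18.6 CPM in the same order. The part of temperature, clock phase and handling in the chaperone differences was not tested.

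Markers of most cell types also moved. The summed level of 10 hepatocyte markers was 113777 to 143514 CPM in young, 89560 to 124060 CPM in old control and 97532 to 99306 CPM in knockout livers. In the same order of groups, summed markers were at 199 to 275, 387 to 466 and 272 to 336 CPM for liver endothelium, 198 to 280, 372 to 1190 and 334 to 595 CPM for Kupffer cells, and 164 to 262, 323 to 522 and 294 to 337 CPM for stellate cells. With age 5 of 7 Kupffer cell, 7 of 9 endothelial, 6 of 8 stellate, 3 of 6 T cell and 4 of 5 B cell markers tested were called higher, and 5 of 5 tested neutrophil markers, whose sum was 6.59 to 14.4, 24.1 to 308 and 14.6 to 32.2 CPM with 2 of 8 markers at 0 in every young liver. Summed T cell markers were at 3.67 to 4.55 CPM in young livers and 9.29, 46.1 and 4.01 CPM in old control replicates 1 to 3. Summed B cell markers were at 3.42 to 7.71 CPM in young livers and 23.9, 33.2 and 8.01 CPM in old control replicates 1 to 3. Old control replicate 3 thus lay in the young range for T cells and just above it for B cells. The neutrophil sum of 308 CPM was that of old control replicate 2, beside 25.9 and 24.1 CPM in replicates 1 and 3. Of the hepatocyte markers 3 of 10 were called lower, and of 5 tested cholangiocyte markers 0 were called. Of all genes 14.1% were called higher with age and 8.66% lower. In bulk samples fewer cells of a type and less RNA per cell cannot be told apart. The part of these shifts in the chaperone values was not tested.

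Knockout livers were compared with old control livers to ask whether loss of hepatocyte Cd44 moved the chaperones. The set was not picked for this difference, but Hspa1a, Hspa1b and Hspa8 may have been picked for low values in all old livers, so their nearness to the old controls is no independent result. None of the 10 genes was called, and none of all 13909 was (0% called in edgeR's quasi-likelihood test, with 6.59% of all genes at an unadjusted p under 0.05 and 0 of the 10). DESeq2 called 8 genes, none of the 10. The median log2 difference of the 10 was 0.16 and that of all genes was -0.02. The other chaperone genes gave 0 of 116 called, with a median of 0.06 and 6 at an unadjusted p under 0.05. The intervals bound what these livers could show, and a p that misses the threshold does not show that the groups are alike.

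The inducible HSP70 pair lay near the old control level. Knockout livers had 9.36, 11.5, 7.16 and 7.82 CPM of Hspa1b in replicates 1 to 4, within the old control range of 6.88 to 12.3 CPM. The log2 difference was -0.07 (95% interval -0.72 to 0.57). For Hspa1a, knockout livers had 1.80, 1.61, 1.22 and 0.992 CPM, a log2 difference of -0.08 (95% interval -0.83 to 0.67). Hspa8 had 904, 845, 826 and 744 CPM, a log2 difference of -0.22 (95% interval -0.60 to 0.15). For these 3 genes the knockout values lay among those of the old controls or slightly below them.

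Other members spread more. Hsph1 had 101, 32.6, 29.7 and 25.97 CPM, a log2 difference of 0.27 (95% interval -0.78 to 1.31, edgeR adjusted p 0.93). Replicate 1 was far above the rest, and without it the difference was -0.42. Hsp90aa1 had 344, 139, 118 and 119 CPM, a log2 difference of 0.47 (edgeR adjusted p 0.83), which was -0.06 without replicate 1. Hspb1 had 104, 35.1, 25.4 and 27.1 CPM, a log2 difference of 0.94 (95% interval -0.19 to 2.06, edgeR adjusted p 0.772), which was 0.22 without replicate 1. For each of these 3 genes the positive sign or most of the size came from that liver.

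Of the rest, Hspe1 had 196, 132, 129 and 128 CPM, and all 4 knockout livers lay above all 3 old controls, as did 2.84% of all genes. Its log2 difference was 0.37 (95% interval -0.04 to 0.79, edgeR adjusted p 0.758), and it was 0.20 without replicate 1. Dnajb1 had 33.2, 19.5, 20.6 and 24.7 CPM, a log2 difference of 0.26 (edgeR adjusted p 0.798). Hsp90ab1 had 1182, 706, 779 and 666 CPM and a log2 difference of 0.06, and Hspd1 had 376, 259, 341 and 252 CPM and a log2 difference of 0.01, with edgeR adjusted p of 0.976 and 0.995. Both groups overlapped for these 3 genes.

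Knockout replicate 1, which received guide 4, stood apart in part of the set. Against the median of the other 6 old livers it was 3.97 times as high for Hspb1, 3.34 for Hsph1 and 2.91 for Hsp90aa1. It was 1.59 times as high for Hsp90ab1 and Dnajb1 and 1.55 for Hspe1, and 1.44 for Hspa1a, 1.43 for Hspd1, 1.103 for Hspa1b and 1.08 for Hspa8. It was the highest of the 7 old livers in 6 of the 10 genes, and old control replicate 3 was highest in the other 4. Among all genes, knockout replicate 1 was highest in 11.6%. For Hsp90aa1, Hspb1 and Hspe1 it was at or above the lowest young liver. In this liver Hspb1, Hsph1 and Hsp90aa1 were thus far above the other old livers while Hspa1b and Hspa8 were near them.

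The same liver was highest in 17 of 18 endoplasmic reticulum chaperones. Creld2, a secreted endoplasmic reticulum protein, was 9.15 times the median of the other 6 old livers, Sdf2l1 4.18, Manf (a secreted stress-induced protein of that compartment) 3.40 and Hyou1 (the endoplasmic reticulum's HSP110 relative) 3.38. Hspa5 was 3.30 times as high. This liver was highest in 10 of 16 HSP90 cochaperones, 9 of 29 HSP70 family genes, 5 of 14 TRiC and prefoldin genes and 4 of 16 mitochondrial genes. Of the 18 heat shock factors and other HSF1 targets it was highest in 2, Ubb and Hikeshi, neither of them a heat shock factor. It was highest in 0 of 5 small heat shock proteins. These counts were taken after the liver had been seen to stand apart, so they describe it and are no test.

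**Figure D4:**
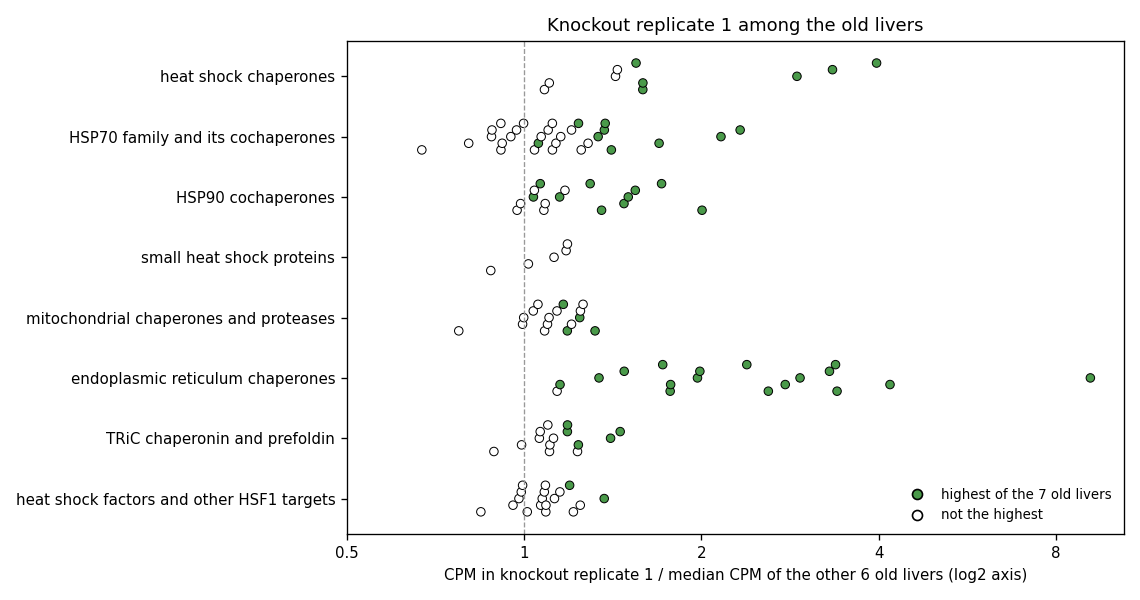
Ratio of CPM in knockout replicate 1 to the median of the other 6 old livers, on a log2 axis, for the 10 chaperone genes (top line) and the 7 chaperone lists, filled where this liver is the highest of the 7 old livers. Hspb1, Hsph1 and Hsp90aa1 lie at 2.91 or more, and Hspa8 and Hspa1b lie at 1.08 and 1.103.

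Compared with young livers, knockout livers had lower mean levels of all 10 genes. This comparison shares its young livers with the age comparison, so it is a description too. Log2 differences were -2.64 for Hspa1a, -2.97 for Hspa1b and -1.46 for Hspa8, beside -2.56, -2.90 and -1.24 in old controls. They were -1.73 for Hsph1, -0.66 for Dnajb1, -1.25 for Hsp90aa1, -0.96 for Hsp90ab1, -1.12 for Hspb1, -0.73 for Hspd1 and -0.39 for Hspe1. In 7 of the 10 genes every knockout liver lay below every young liver, against 18.8% of all genes, and 6 were called, against 4.97% of all genes called lower and 6.64% called higher. Without knockout replicate 1 all 10 were called and the differences of Hsph1, Hsp90aa1 and Hspb1 were -2.41, -1.78 and -1.83. Leaving out any other knockout liver, or any young liver, left 3 called. Of the 116 other chaperone genes 21 were called lower and 1 higher.

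Within the knockout livers, guide 4 and guide 2 were compared with 2 livers each. No member was called (edgeR's quasi-likelihood test, adjusted p 0.986 or more), against 0.0216% of all genes. At an unadjusted p under 0.05 there were 3 members, against 4.34% of all genes. These were Hsph1, Hsp90aa1 and Hspb1, with higher means with guide 4 by 1.26, 1.03 and 1.40 on the log2 scale. All 10 members were higher on average with guide 4, and in 7 both guide 4 livers lay above both guide 2 livers, as in 18.1% of all genes. Without knockout replicate 1 the 3 differences were 0.23, 0.23 and 0.42, and those of Dnajb1, Hsp90ab1 and Hspd1 were -0.21, -0.03 and -0.20. Guide and that single liver cannot be told apart with 2 livers a guide. Among the 116 other genes, 0 were called and 8 had an unadjusted p under 0.05, all 8 in the endoplasmic reticulum list, whose 18 of 18 genes were higher with guide 4 at a median of 0.85.

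How far the 10 genes varied together within groups differed between pairs, and the same was not computed for other genes. Over the 10 livers, deviations of log2 CPM from the group means had a median Pearson r of 0.53 across the 45 pairs. The points share library and depth, and 3 group means were removed from 10 livers. The closest pair was Hsph1 and Hsp90aa1 at 0.99, followed by Hspb1 and Hspe1 at 0.95, Hsph1 and Hsp90ab1 at 0.95, Hsp90aa1 and Hsp90ab1 at 0.92, Hsp90ab1 and Hspd1 at 0.88, Hspa8 and Hspd1 at 0.87, Hspa1a and Hspa1b at 0.83, and Hspa8 and Hsp90ab1 at 0.82. The lowest were Hspe1 with Hspa1a at -0.03, with Hspa1b at 0.03 and with Hspa8 at 0.07. Knockout replicate 1 contributes a large deviation to the pairs among Hsph1, Hsp90aa1, Hspb1 and Hspe1. Old control replicate 3 was the highest old control for Hspa8, Hspd1 and Hsp90ab1, at 1254, 421 and 1032 CPM, and bears on their pairs. The division of reads between Hspa1a and Hspa1b is uncertain, and its part in their r was not tested.

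Genes outside the set were ranked by Pearson r, over the 10 livers, with the mean centred log2 CPM of Hspa1a, Hspa1b and Hspa8. Among 9952 genes with a mean CPM of at least 5, 176 had an r above 0.9. The 8 highest were Piga (0.98), Rad1 (0.97), Zc3h10 (0.97), Wdr5 (0.97), Agt (0.96), Atp13a3 (0.96), Sntg2 (0.96) and Bag3 (0.96). On deviations from group means the r values were 0.81 for Piga, 0.58 for Rad1, 0.62 for Zc3h10, 0.70 for Wdr5, 0.71 for Agt, 0.70 for Atp13a3, 0.83 for Sntg2 and 0.72 for Bag3. Each was lower than over the livers as they stand, on which the 8 were picked, so nothing is read from the drop. Hspa1a, Hspa1b and Hspa8 were chosen for their fall in old livers, so a high r may largely restate that fall. Bag3, a known HSF1 target and cochaperone, was the only one of the 8 in the chaperone lists.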

How the data were processed

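The authors deposited raw counts of reads per gene symbol, 1 column per liver, with no normalization. Per the labels' protocols, RNA was extracted with Direct-zol kits, polyadenylated RNA was made into libraries with the Watchmaker kit, and paired reads of 75 bases came from an Element AVITI. The submitters' processing notes name FastQC 0.11.8, Trim Galore 0.4.4, STAR 2.5.3a, HOMER and mm10. Annotation, strand and the handling of reads with several matches are not given in the sources used here.

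Counts were tested with edgeR 4.0.16 (R 4.3.3): TMM factors, filterByExpr (minimum count 10, minimum total 15), its quasi-likelihood test on all 10 livers with a coefficient for each group (and each guide in the guide comparison), and Benjamini-Hochberg adjustment over 13909 genes at 0.05. The biological coefficient of variation was 21.8%. SE is the log2 difference divided by the square root of F. Log2 CPM used a prior count of 2. Floors of 3 counts cover counting error only.

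Members and lists were chosen with earlier results of these data known. Besides the 10 members, up to 4 called genes per list with a mean of at least 1 CPM were eligible to be named, and 8 genes by likeness. Other list genes and the genes of the single-liver description were named after their values were seen. Alternatives were DESeq2 1.42.0, DESeq2 size factors, no filter, fits of the compared groups alone, the summed Hspa1 pair, total counts and leaving out each liver. Scripts were tested on simulated data. Promoter letters came from RefSeq, positions and transcripts from GENCODE M21.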

Additional observations from a re-analysis of the deposited data

Results flagged for a closer look

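In a group of 4 livers, the highest or lowest liver was noted where its gap to its neighbour, divided by the group's range, was above Dixon's 95% critical value for 4 livers, for 50 genes looked at. This happened for 11 of them and for 4 of the 10 chaperones. The chance rate of about 1 in 20, or 2.5 genes, holds for normally distributed values. The quotients were taken on linear CPM, which need not be so distributed, and no excess over chance is read from the counts. The genes vary together and share the livers, so the flagged genes are not independent. In brackets stand that quotient, the CPM of that liver and the CPM range of the other 3.

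Knockout replicate 1 was highest for Hsph1 (0.912; 101 CPM against 25.97 to 32.6), Hsp90aa1 (0.907; 344 against 118 to 139), Hspb1 (0.877; 104 against 25.4 to 35.1) and Hspe1 (0.953; 196 against 128 to 132). It was also highest for Dnaja1 (0.926; 337 CPM against 156 to 169), Stip1 (0.955; 121 against 58.1 to 60.9), Chordc1 (0.906; 51.2 against 28.4 to 30.5) and Hspa5 (0.894; 2303 against 550 to 735). It was lowest for Egr1 (0.855; 6.62 CPM against 16.9 to 18.6).

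Knockout replicate 4 was lowest for Clpx (0.915; 92.3 CPM against 123 to 126). Knockout replicate 2 was highest for Nr4a1 (0.8293; 5.45 CPM against 2.63 to 3.11).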

How the results depend on the processing

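No paired analysis was possible because no label ties a liver of one group to a liver of another. The number of genes called with age, 3172, was 1192 with only the compared groups in the fit and 396 to 5327 when single livers of these groups were left out. The other chaperone genes called with age, 35, were 21 and 5 to 66, and the 10 members called were 4 to 10. The 0 genes called with knockout became 8 with DESeq2 and 0 to 3 when 1 liver was left out (3 without old control replicate 1). Against young livers, 1614 genes called became 2803 with DESeq2, 4223 with only the compared groups and 56 to 1652 with 1 young or knockout liver left out. The 6 members called became 3 to 10, and the 22 other chaperone genes 41, 52 and 0 to 41. Between guides, 3 genes called became 71 with DESeq2, 10 without the filter, 31 with only the compared groups and 0 with any knockout liver left out, and the 0 other chaperone genes became 1 with DESeq2. The cause was not tested. Directions of some member differences, not only of those near 0, turned in some fits that left out 1 liver. With knockout the ranges were -0.24 to 0.22 for Hspa1a, -0.26 to 0.17 for Hspa1b, -0.36 to 0.0082 for Hspa8, -0.42 to 0.75 for Hsph1, -0.056 to 0.76 for Hsp90aa1, -0.15 to 0.30 for Hsp90ab1 and -0.16 to 0.32 for Hspd1. Between guides they were -0.21 to 0.55 for Dnajb1, -0.033 to 0.71 for Hsp90ab1 and -0.20 to 0.34 for Hspd1. All 10 age differences kept their sign in the other fits, from -0.57 to -3.14, and as ratios of mean CPM with total counts, from -0.45 (Hspe1) to -2.63 (Hspa1b). Hspa1a rests on the fewest counts, and its age difference ranged from -2.27 to -2.86.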
